A study of Mus musculus with 47 samples.

Results

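Gene expression after a week without ethanol was compared between mice with a history of chronic intermittent ethanol vapor (CIE 7d, 6 arrays) and mice that had breathed air (Ctrl 7d, 6 arrays), groups taken from the sample titles. These 12 of the 47 arrays of the study were set against each other over all 45037 non-control probesets of an Affymetrix mouse genome array, a microarray that reads most genes with several sets of short probes. Each array holds RNA of 1 mouse, an adult C57BL/6J male, taken from the medial prefrontal cortex (PFC). CIE mice spent 16 hours per day over 4 days in ethanol vapor of 10 to 13 mg per liter of air, then 7 days in abstinence, for 4 cycles. They received ethanol (1.6 g/kg) with pyrazole (1 mmol/kg), a blocker of alcohol dehydrogenase, before each cycle. Ctrl mice received saline with the same pyrazole and breathed air in like chambers, so that repeated pyrazole was common to both groups. The study also took mice at 0h, 8h and 72h after the last exposure, each time with its own Ctrl mice, which are used below for comparison. Values are log2 RMA signals, and probesets with a mean over the 47 arrays at or above the median probeset (6.41) are called bright and the others dim. A dim signal lies close to the background of such an array, where unspecific binding makes up much of the reading.

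Abstinence after repeated ethanol exposure is the setting in which the medial PFC, a region for planning and control over drug seeking, is studied in relapse. Early withdrawal is known for changes in neuronal activity, stress hormones and inflammation, while later abstinence is thought of as a state of slower adaptation in synapses, chromatin and metabolism. Bulk tissue mixes neurons, glia and vessels, and fewer cells of a type or less RNA per cell cannot be told apart in it.

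The 12 arrays were alike in scale and differed in what tissue they held. Array medians lay between 6.39 and 6.42 over the 47 arrays, and the mean correlation of a 7d array with the other arrays was 0.990 to 0.993. Markers of cortical neurons were strong, with 13 of 13 measured genes for excitatory neurons and 14 of 14 for interneurons bright, whereas 0 of 8 blood genes and 1 of 14 choroid plexus genes were. Ctrl mouse 46 stood farthest from its own group, with 7.47% of probesets more than 0.5 log2 units from the mean of its 5 group mates, against 0.762% to 3.77% for the other 11 mice. Striatal markers were high in CIE mouse 7 (mean 9.45), and in Ctrl mice 22 (9.22) and 80 (8.99), against 8.00 to 8.16 in the other CIE mice and 7.97 to 8.16 in the other Ctrl mice. Markers of meninges and fibroblasts averaged 8.82 in CIE mouse 27 and 6.30 to 6.58 in the other 5 CIE mice, against 6.46 to 7.04 in Ctrl mice. With the mean levels of both marker lists as terms in the model, a setting added after the data were seen, 434 probesets were called between CIE 7d and Ctrl 7d and 386 of them were shared with the 427 called without those terms.

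**Figure D1:**
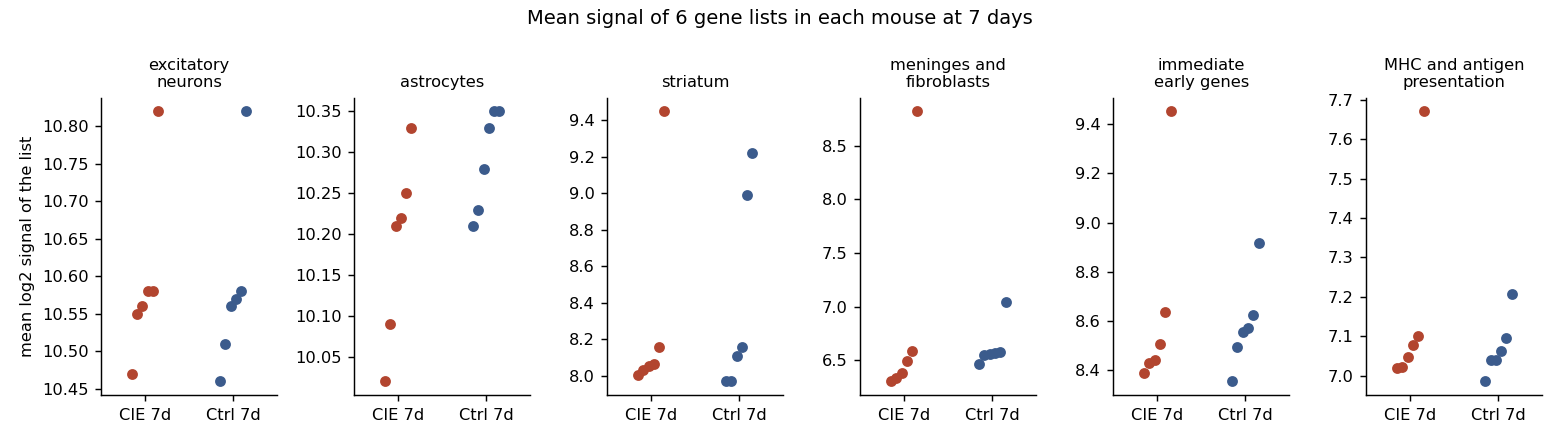
Mean log2 signal (y axis) of 6 gene lists in each CIE 7d mouse (left, red) and each Ctrl 7d mouse (right, blue), 1 point per mouse, with a separate scale per list. Single mice stand apart for striatum, meninges, immediate early genes and MHC genes, and the groups overlap in every panel.

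After 7 days of abstinence 427 probesets of 299 genes differed between CIE and Ctrl mice at FDR ≤ 0.01 in limma (0.948% of all probesets), 217 higher in CIE 7d (0.482%) and 210 lower (0.466%). The differences were small. Their median size was 0.44 log2 units, 148 exceeded 0.5 and 2 exceeded 1. Bright probesets made up few of them. Of 22519 bright probesets 57 were called (0.253%), 27 higher and 30 lower, and of 22518 dim probesets 370 (1.64%), 190 higher and 180 lower. The median residual SD was 0.165 log2 units for bright and 0.167 for dim probesets. Among the called probesets, 53 of the 57 bright and 249 of the 370 dim carried 1 gene symbol. The 6 CIE and 6 Ctrl values did not overlap at 303 of the 427 called probesets and 48 of the 57 bright ones. Over all probesets 3.35% had groups apart, but the called ones were selected on these same values, which favors such separation. The count moved with single mice, between 200 without CIE mouse 37 and 539 without CIE mouse 13. It was 233 without Ctrl mouse 46 and 221 without CIE mouse 27, and 144 of the 427 (21 of them bright) were called whichever mouse was left out. Fitted on the 12 arrays alone, with the spread of those mice only, 247 probesets were called, of which 141 were among the 427.

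**Figure D2:**
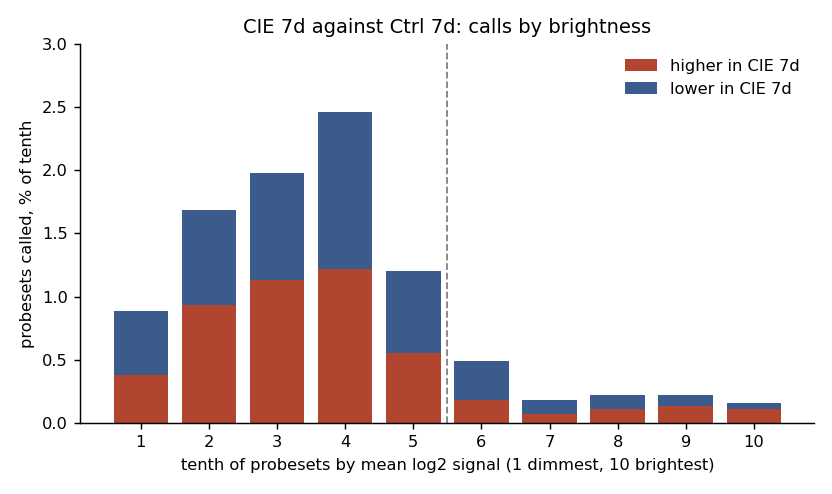
Share of probesets called between CIE 7d and Ctrl 7d (y axis, % of each bin, stacked by direction) in 10 equal bins of probesets ordered by mean log2 signal (x axis), with a dashed line at the median. The share is highest in the fourth bin, at 2.46%, and lies between 0.155% and 0.489% in the 5 bins right of the line.

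Over 10 equal bins of mean signal, the called share was 0.888% in the dimmest bin, peaked at 2.46% in the fourth (levels 4.91 to 5.58), and was 0.155% in the brightest. Directions were near balance on both sides of the median. Some called probesets lay close to the brightness line. Faap100 (6.43) and Aftph (6.44) lay just above it, and Orc1 (6.39) and Plekha4 (6.35) just below.

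The smallest adjusted p among the bright calls was that of Clint1, which encodes a clathrin adaptor for vesicles between Golgi and endosomes. Its signal ran from 10.91 to 11.16 in CIE 7d mice (median 11.07) and from 10.54 to 10.73 in Ctrl 7d mice (median 10.63). The groups were apart, and the difference of 0.41 ± 0.06 (SE, adjusted p = 3.61e-05) was called under every alternative run, including without any 1 mouse, as were those of Yod1, Usp24, Gng2, Stag2, Ppp1r10, Ndufb2, G0s2 and Zfp148 among the other named bright probesets. Its second probeset, dim at 4.21, differed in the same direction by 0.27 (unadjusted p = 0.00486).

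Some bright rises were of genes that add or remove ubiquitin, the tag that marks proteins for breakdown, and these were not tested as a group. Yod1, a deubiquitinase that helps proteins leave the endoplasmic reticulum for degradation, ranged from 8.94 to 9.16 in CIE 7d mice (median 9.04) and from 8.42 to 8.52 in Ctrl 7d mice (median 8.46). All 6 CIE mice lay above all Ctrl mice, a ratio of 1.49 (difference 0.58 ± 0.10, adjusted p = 4.76e-04), while a brighter probeset of the gene, at 9.67, differed by -0.11. The deubiquitinase Usp24 lay between 7.36 and 7.63 in CIE 7d mice (median 7.48), against 6.58 to 7.03 in Ctrl 7d mice (median 6.90), a difference of 0.61 ± 0.11 (adjusted p = 6.60e-04). Smaller rises were those of its relative Usp34 (0.20), of Armc8 (0.37), a subunit of the CTLH ubiquitin ligase, and of Anapc5 (0.32), a subunit of the anaphase-promoting complex. Usp34 and Anapc5 were picked out after their values were seen. Of the 43 measured genes of the proteasome and ubiquitin list, each read from its brightest probeset, limma called 0, with 2 higher and 1 lower at an unadjusted p ≤ 0.05, where 8.24% of all genes so read were higher and 8.49% lower at that level. Armc8 lost its call in 8 of 22 alternatives, among them those without CIE mice 27, 37, 45 or 65 or Ctrl mice 70 or 80 (0.33 to 0.35).

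**Figure D3:**
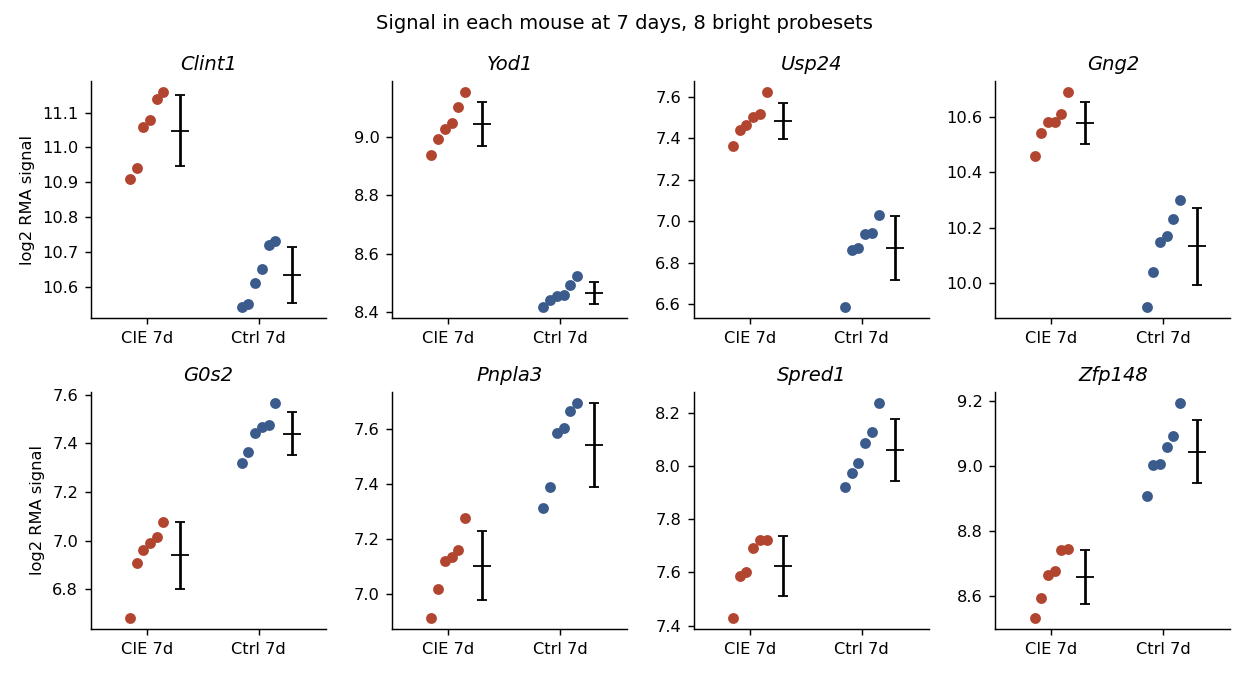
Log2 RMA signal (y axis) of 8 bright called probesets in each CIE 7d mouse (left, red) and Ctrl 7d mouse (right, blue), with the mean and SD of each group beside the points (n = 6 each), on separate scales that do not start at 0. In each of these 8 panels the lowest point of the higher group lies above the highest point of the lower group.

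Gng2, a gamma subunit of heterotrimeric G proteins, was among the brightest probesets that rose. It lay between 10.46 and 10.69 in CIE 7d mice (median 10.58) and between 9.91 and 10.30 in Ctrl 7d mice (median 10.16). The difference was 0.45 ± 0.08 (adjusted p = 7.77e-04). It was lower in CIE mice at 8h (-0.43) and differed by -0.02 at 72h. The rise at 7d and the value at 8h differed by 0.88 (limma interaction, adjusted p = 5.57e-05). Gng2 was selected for its rise at 7d, which is part of that difference.

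The other named bright rises were read at lower signal than Gng2. Stag2, a cohesin subunit, rose by 0.55 ± 0.10, with 7.56 to 7.74 in CIE 7d mice and 6.89 to 7.26 in Ctrl 7d mice. Ppp1r10, a nuclear targeting subunit of protein phosphatase 1, rose by 0.57 ± 0.10, with 6.89 to 7.26 in CIE 7d mice and 6.22 to 6.73 in Ctrl 7d mice. Neither called probeset had overlapping groups, which selection as called favors. For 10 of the 12 named bright rises the gene has another probeset. The brightest other one moved the same way at limma's unadjusted p ≤ 0.05 in 1 of them and the opposite way in 0. For 10 of the 12 named bright falls it did so in 0 and 1. Tanc2, a postsynaptic scaffold protein, had the largest bright rise (0.75 ± 0.16, adjusted p = 0.00625), on a probeset at 7.05, while its probeset at 11.22 differed by -0.06. Its call was lost in 11 of 22 alternatives, among them those without any 1 of the 6 CIE mice or without Ctrl mice 28, 46, 70 or 80 (0.69 to 0.76). The rest were the splicing factor Puf60 (0.45), the polarity protein Vangl1 (0.51), the complex I subunit Ndufb2 (0.44) and the lectin-like receptor Klrg2 (0.46). The array carries 2 further probesets of Ndufb2, and the brighter, at 12.22, differed by 0.03. Vangl1 lost its call in 11 of 22 alternatives, including without any CIE mouse but mouse 13 and without Ctrl mice 28, 46, 70 or 80 (0.45 to 0.52). Klrg2 lost it in 9, including without CIE mice 7, 13, 37 or 45 or Ctrl mice 46, 70 or 80 (0.42 to 0.47), and Puf60 in 2, without Ctrl mice 28 or 80 (0.41 and 0.42).

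G0s2, an inhibitor of the main triglyceride lipase of fat stores, and Pnpla3, a lipid droplet enzyme of the same enzyme family as that lipase, both fell. Each is read by a single probeset. In fat and liver both genes are known to respond to feeding and insulin. Their sequence before the start of the gene is shown, with that of Yod1, because G0s2 and Pnpla3 are each read by their only probeset and Yod1 was called whichever mouse was left out. These are the 250 bases before the start in RefSeq (GRCm38.p6), of which only the 210 outside the annotated gene are shown for Pnpla3, written 5′ to 3′ on the gene's strand, with matches to the searched motifs in capitals. G0s2 lies at chr1:193273189-193273438 (minus strand), Pnpla3 at chr15:84167566-84167775 (plus strand) and Yod1 at chr1:130717077-130717326 (plus strand).
G0s2: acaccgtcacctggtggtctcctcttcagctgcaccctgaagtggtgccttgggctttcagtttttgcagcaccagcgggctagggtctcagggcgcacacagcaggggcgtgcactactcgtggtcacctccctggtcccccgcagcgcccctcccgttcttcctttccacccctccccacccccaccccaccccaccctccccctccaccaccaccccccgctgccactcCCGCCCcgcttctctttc
Pnpla3: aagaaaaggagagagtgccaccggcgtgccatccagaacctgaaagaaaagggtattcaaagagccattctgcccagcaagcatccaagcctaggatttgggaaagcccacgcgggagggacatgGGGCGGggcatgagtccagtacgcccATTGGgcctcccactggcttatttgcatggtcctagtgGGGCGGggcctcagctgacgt
Yod1: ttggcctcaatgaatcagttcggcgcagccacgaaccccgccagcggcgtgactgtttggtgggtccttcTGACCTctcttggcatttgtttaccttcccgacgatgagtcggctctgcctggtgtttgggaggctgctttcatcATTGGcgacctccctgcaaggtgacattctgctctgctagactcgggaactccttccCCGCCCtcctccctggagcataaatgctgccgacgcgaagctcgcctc
The motifs were searched on both strands: the TATA box TATAAA, the CCAAT box, the GC box GGGCGG, the E-box CACGTG, the nuclear receptor half-site AGGTCA and the sterol element TCACNCCAC. They do not overlap each other in these 3 stretches. G0s2 holds 1 GC box, Pnpla3 holds 2 GC boxes and a CCAAT box, and Yod1 holds a GC box, a CCAAT box and a nuclear receptor half-site. GC boxes occur in 32.7% of all 32851 promoters of 250 bases, CCAAT boxes in 33.8%, nuclear receptor half-sites in 14.0%, TATA boxes in 12.4%, E-boxes in 6.02% and the sterol element in 1.05%. Among genes with a bright probeset 65.2% hold a GC box. Of the bright called genes with a promoter in the table, 14 of 20 that rose and 21 of 24 that fell hold 1. A match is a string of letters and was not tested as a binding site.

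G0s2 ranged from 6.68 to 7.08 in CIE 7d mice (median 6.98) and from 7.32 to 7.57 in Ctrl 7d mice (median 7.46). The highest CIE mouse lay below the lowest Ctrl mouse, and the difference was -0.50 ± 0.09 (adjusted p = 6.32e-04), a ratio of 0.707. Pnpla3 ranged from 6.91 to 7.28 in CIE 7d mice (median 7.13) and from 7.31 to 7.70 in Ctrl 7d mice (median 7.59). It differed by -0.44 ± 0.09 (adjusted p = 0.00272), again with the groups apart. At 0h both genes were also lower in CIE mice, G0s2 by -0.43 and Pnpla3 by -0.37, and at 8h they differed by 0.04 and 0.06. Bright falls were also read for Acox3 (-0.39), a peroxisomal acyl-CoA oxidase, Agps (-0.25), which makes ether lipids, and Mcat (-0.29) of mitochondrial fatty acid synthesis. The call of Acox3 was lost in 12 of 22 alternatives, including without any CIE mouse but mouse 37 and without Ctrl mice 18, 28, 70 or 80 (-0.41 to -0.34), and that of Pnpla3 in 1, on the 12 arrays alone. The choline transporter gene Slc44a1 fell by -0.27. Agps, Mcat and Slc44a1 were picked out after their values were seen, and these genes were not tested as a group. Of the 36 measured genes of cholesterol and fatty acid synthesis limma called 0, with 4 higher and 0 lower at an unadjusted p ≤ 0.05, and the list median was 0.02 beside -0.01 over all genes.

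Several bright falls encode proteins of membrane traffic, a grouping made after their values were seen and not tested. Aftph, a partner of clathrin adaptors, ranged from 5.92 to 6.64 in CIE 7d mice (median 6.14) and from 6.58 to 6.89 in Ctrl 7d mice (median 6.66), so that the groups overlapped narrowly. It differed by -0.47 ± 0.09 (adjusted p = 0.00114). Eps15l1, of endocytic pits, fell by -0.35, Tom1l1, of endosomal sorting, by -0.36 and Sec22a, of transport between endoplasmic reticulum and Golgi, by -0.32. Vps29, a retromer subunit, fell by -0.23 and Arl1, a GTPase of the Golgi, by -0.24. Clint1, also of clathrin coats, moved the other way. Of the 48 genes of the vesicle release list 0 were called by limma on the brightest probeset (0 higher and 3 lower at an unadjusted p ≤ 0.05). Dim second probesets of 2 of them were called, -0.46 for Syn2 (adjusted p = 9.20e-04), a synapsin, and 0.57 for Bin1 (adjusted p = 0.00470), of membrane curvature.

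The remaining named bright falls had varied roles. Spred1, an inhibitor of Ras signalling, ranged from 7.43 to 7.72 in CIE 7d mice (median 7.65) and from 7.92 to 8.24 in Ctrl 7d mice (median 8.05), a difference of -0.43 ± 0.09 (adjusted p = 0.00395). Zfp148, a zinc finger transcription factor, ranged from 8.53 to 8.74 in CIE 7d mice (median 8.67) and from 8.91 to 9.19 in Ctrl 7d mice (median 9.03), a difference of -0.38 ± 0.08 (adjusted p = 0.00288). In both genes every CIE mouse lay below every Ctrl mouse. The tRNA methyltransferase Mettl1 fell by -0.41, the splicing factor Slu7 by -0.39, the RNA polymerase II kinase Cdk12 by -0.36, the centrosome protein Sdccag8 by -0.42 and the membrane protein Mospd3 by -0.38. Faap100, of the Fanconi anemia complex for DNA repair, had the largest bright fall of the named genes (-0.56 ± 0.10, adjusted p = 7.21e-04), with 5.98 to 6.62 in CIE 7d mice and 6.64 to 6.93 in Ctrl 7d mice. Calls were lost without some single mice. Sdccag8 lost its call in 14 of 22 alternatives, including without any 7d mouse but CIE mouse 65 (-0.43 to -0.38), and Slu7 in 13, including without any but CIE mouse 13 (-0.41 to -0.35). Cdk12 lost it in 12, including without any CIE mouse but mouse 7 and without Ctrl mice 22, 46 or 70 (-0.36 to -0.32). Mospd3 lost it in 8 (without CIE mice 7, 13 or 27 or Ctrl mice 28, 46 or 70, -0.38 to -0.33), Spred1 in 6 (without CIE mice 27 or 45 or Ctrl mice 46, 70 or 80, -0.43 to -0.39) and Mettl1 in 5 (without CIE mice 37, 45 or 65 or Ctrl mouse 70, -0.40 to -0.38). Among bright probesets at the edge of the threshold, Sdccag8 was called (adjusted p = 0.00995), and Gtpbp4 (0.24, adjusted p = 0.0102) and Braf (0.49, adjusted p = 0.0104) were not.

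Most of the larger differences came from dim probesets, 139 of the 148 over 0.5. Abca1, the cholesterol exporter, lay between 4.90 and 5.45 in CIE 7d mice (median 5.25) and between 4.17 and 4.69 in Ctrl 7d mice (median 4.54). Its rise of 0.73 ± 0.12 (adjusted p = 3.45e-04) was read from this probeset alone, since the probeset of Abca1 at 9.84 differed by 0.06. Apol6, an apolipoprotein L gene with a single probeset, lay between 5.70 and 6.34 in CIE 7d mice (median 5.91) and between 5.13 and 5.38 in Ctrl 7d mice (median 5.29), a rise of 0.66 ± 0.09 (adjusted p = 5.07e-05). The defensin Defb2 (0.70), the deubiquitinase cofactor Wdr48 (0.68) and the ubiquitin ligase receptor Dcaf1 (0.67) were the other named dim rises. Wdr48 differed by 0.13 (unadjusted p = 0.0176) on its brightest probeset, and Dcaf1 by -0.18 (unadjusted p = 0.00365).

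Among dim falls Smyd5, a protein methyltransferase, led with -1.10 ± 0.23 (adjusted p = 0.00373). It ranged from 4.56 to 5.22 in CIE 7d mice (median 4.85) and from 5.46 to 7.15 in Ctrl 7d mice (median 5.84), where Ctrl mouse 46 was the highest. Its call was lost without that mouse, without CIE mice 27, 37 or 45 (-1.07 to -0.86), and on the 12 arrays alone. Prkar2a, a regulatory subunit of protein kinase A, fell by -0.74 ± 0.11 (adjusted p = 9.27e-05), with 4.18 to 4.81 in CIE 7d mice and 4.89 to 5.56 in Ctrl 7d mice. The unannotated transcripts 9630013A20Rik (-1.04) and Gm15663 (-0.79) and the ATP synthase subunit Atp5a1 (-0.72) followed. The main probeset of Atp5a1, at 13.56, differed by 0.05, and its dim call was lost without CIE mice 27, 37 or 65 or Ctrl mice 28, 46, 70 or 80 (-0.72 to -0.66).

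Genes with several probesets allowed the calls to be read a second time on the same arrays. Of the 302 called probesets with 1 symbol, 215 had another probeset for the gene, and the brightest of these, with probesets marked as matching several transcripts set last, differed in the same direction in 107 (49.8%), beside 53.8% over all such pairs of probesets on the array. It was called in the same direction in 2 cases, both dim. Its median size of difference was 0.10, against 0.43 for the called probesets. At an unadjusted p ≤ 0.05 the other probeset moved with the called one in 25 cases and against it in 18. For bright called probesets the counts were 20 of 41 in the same direction, with 0 called. Mospd3 was called on both its probesets, in opposite directions, -0.38 on its bright and 0.39 on its dim probeset. Gtf2i, a general transcription factor, fell on both called probesets and Tex21, a testis transcript, rose on both. Probesets of a gene can read different ends or isoforms of a transcript, and the part of such differences or of unspecific binding in these calls was not tested.

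**Figure D4:**
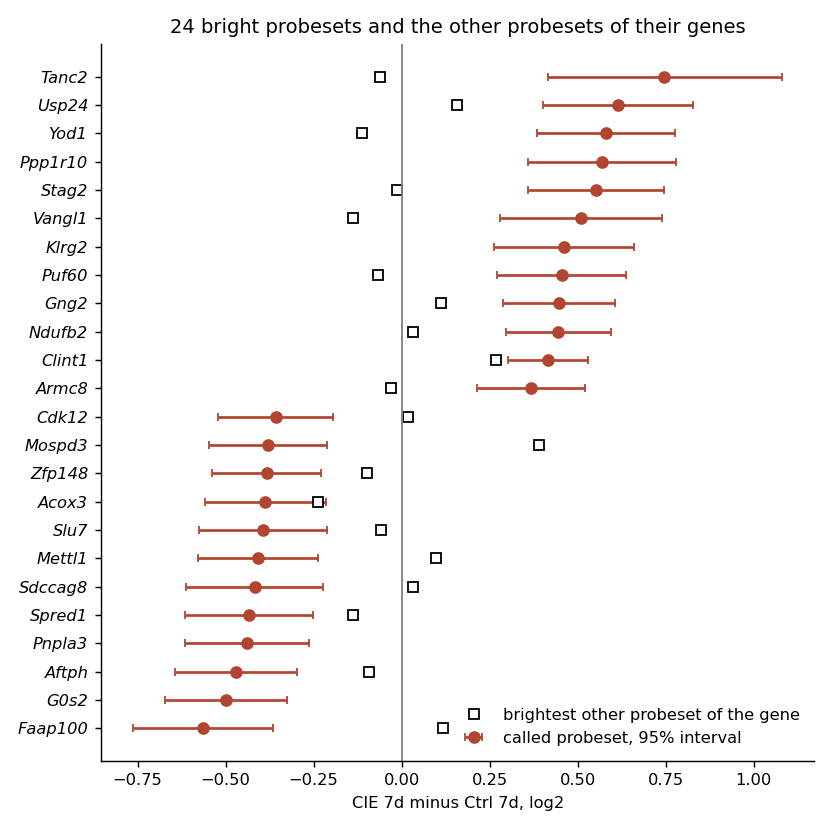
CIE 7d minus Ctrl 7d on the log2 scale (x axis) for the 24 named bright probesets (filled circles with 95% confidence intervals) and for the brightest other probeset of the same gene where there is one (open squares, no interval drawn). The 24 probesets were selected as called in the same fit, so their intervals had to exclude 0. Of their genes 20 have a square. Most squares lie near 0, with Clint1 and Acox3 nearest to their circles and Mospd3 on the opposite side.

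Pathways named for ethanol, stress and synapses showed few calls at 7 days when each gene was read from its brightest probeset, those marked as matching several transcripts taken only where a gene had no other. Over all 18194 genes so read, 0.44% rose and 0.297% fell at 7d, with a median difference of -0.01. At these shares lists of the sizes below would hold few or no calls, so a count of 0 is not a result about their genes. At an unadjusted p ≤ 0.05 in limma 8.24% of them were higher and 8.49% lower. Of 36 immediate early genes, which neurons switch on with activity, limma called 0 at 7d (1 higher and 0 lower at an unadjusted p ≤ 0.05). At 0h 10 of them were called lower and 1 higher in CIE mice, where 3.51% of all genes were called lower and 4% higher. The list mean ran from 8.39 to 9.45 in CIE 7d mice (median 8.47), with CIE mouse 13 the highest, and from 8.36 to 8.92 in Ctrl 7d mice (median 8.56). Bdnf, a neurotrophin that neuronal activity induces, ranged from 8.84 to 9.69 in CIE 7d mice (median 9.11) and from 8.94 to 9.79 in Ctrl 7d mice (median 9.12). It differed by -0.08 ± 0.18 (95% interval -0.45 to 0.29, adjusted p = 0.881), and by -1.07 at 0h, and the test of the difference between these effects missed the threshold (adjusted p = 0.0314).

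Glucocorticoid-responsive genes likewise had 0 of 28 calls by limma at 7d (0 higher and 1 lower at an unadjusted p ≤ 0.05) and 10 rises at 0h, where 4% of all genes rose. Plin4, a lipid droplet protein of that list, differed by -0.71 ± 0.31 at 7d (adjusted p = 0.201) and by 2.54 at 0h, and the effects differed by -3.25 (adjusted p = 1.01e-04). Of 38 genes of ethanol and aldehyde metabolism limma called 0, with 2 higher and 2 lower at an unadjusted p ≤ 0.05. The smallest p-values of that list were those of Fbp1 (0.26, adjusted p = 0.0162), of gluconeogenesis, and Aldh1b1 (0.46, adjusted p = 0.0229), a mitochondrial aldehyde dehydrogenase.

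Synaptic lists had no calls on the brightest probesets, which lists of this size could show at the share called over all genes. Read in this way, limma called 0 of 26 glutamate receptor genes (1 higher and 0 lower at an unadjusted p ≤ 0.05), 0 of 28 postsynaptic scaffold genes (1 and 1) and 0 of 21 genes of GABA and glycine signalling (1 and 2). Their list medians were 0.01, 0.02 and -0.04. The smallest p-values were those of the kainate receptor gene Grik3 (0.46, adjusted p = 0.160) and of the GABA receptor subunits Gabrg1 (-0.26, adjusted p = 0.123) and Gabra4 (-0.17, adjusted p = 0.172). Among 55 histone modifiers, 0 were called (4 higher and 8 lower at an unadjusted p ≤ 0.05), led by the histone methyltransferase Suv39h2 (-0.45, adjusted p = 0.0335). Over all genes 8.24% were higher and 8.49% lower at that level, and the list was not tested as a group. A dim second probeset of Kdm2a, a histone demethylase, rose by 0.59 (adjusted p = 0.00316), while its brightest differed by -0.02. Of 17 genes of DNA methylation 0 were called on the brightest probeset (0 higher and 2 lower at an unadjusted p ≤ 0.05). A second bright probeset of Dnmt3a, a DNA methyltransferase, at 9.79, rose by 0.33 (adjusted p = 0.00800), while its brightest differed by -0.08.

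Immune and cell type lists gave 2 calls on the brightest probesets, both dim. Clec2i, a lectin of immune cells, rose by 0.55 ± 0.12 (adjusted p = 0.00456) at a mean of 4.21, and Cpa1, a pancreatic enzyme that cortex should lack, rose by 0.57 ± 0.11 (adjusted p = 0.00305) at a mean of 4.68. Of 17 MHC genes limma called 0 (0 higher and 0 lower at an unadjusted p ≤ 0.05), and the list mean of 7.67 in CIE mouse 27 stood above the 7.02 to 7.10 of the other CIE mice and the 6.99 to 7.21 of Ctrl mice. A dim probeset of H2-D1, an MHC class I gene, that is marked as matching several transcripts rose by 0.69 (adjusted p = 0.00279), while its brightest differed by 0.33 (adjusted p = 0.659). Of 35 interferon genes 0 were called, with 4 higher and 6 lower at an unadjusted p ≤ 0.05. Over all genes 8.24% were higher and 8.49% lower at that level, and this list was not tested as a group. Neuron, astrocyte, oligodendrocyte, microglia and vessel markers had 0 calls by limma among 94 genes on the brightest probesets, and a dim second probeset of Reln, an interneuron marker, fell by -0.24 (adjusted p = 0.00923). Astrocyte markers were lower in CIE for 11 of 14 genes, with a list mean of 10.02 to 10.33 in CIE 7d mice and 10.21 to 10.35 in Ctrl 7d mice, and interneuron markers for 11 of 14, with 9.91 to 10.25 in CIE 7d mice and 10.02 to 10.30 in Ctrl 7d mice. The groups overlapped in both. Over all genes 9558 of 18194 were lower. Lower too were 12 of 18 oligodendrocyte, 12 of 18 vessel, 9 of 17 microglia and 5 of 13 excitatory neuron markers. Markers of 1 cell type are read in the same mice and are not independent, and these counts were not tested.

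A list of 29 symbols was taken from the genes that the study put forward as candidates at 7d, of which 25 were measured under 1 symbol, on 73 probesets. They were selected by the study from these same mice, and their direction is therefore not independent evidence. A probeset was called at FDR ≤ 0.01 in 9 of the 25, higher in 6 and lower in 3. Over all 18194 genes 299 had a called probeset. The FDR values that the study lists for its candidates at 7d also run above 0.01. The absence of a call here is therefore not a failure to find the study's difference. Candidates whose probeset has another symbol or none here are not in this count. Such dim probesets that were called include that of 4930444F02Rik (0.39) and 3 with no symbol listed (0.77, -0.79 and -0.64). Myoz1, known for muscle Z-discs, was called on its brightest probeset, which is dim. It ranged from 4.53 to 5.31 in CIE 7d mice (median 5.15) and from 4.16 to 4.58 in Ctrl 7d mice (median 4.42), so that the groups overlapped, and rose by 0.61 ± 0.12 (adjusted p = 0.00326). Its call was lost on the 12 arrays alone and without CIE mice 37, 45 or 65 or Ctrl mouse 70 (0.54 to 0.56). Its other probeset differed by -0.03. Sgsh, a lysosomal enzyme that breaks down heparan sulfate, fell by -0.56 ± 0.13 (adjusted p = 0.00986) on the dimmer of its 2 probesets. That probeset ranged from 4.80 to 5.15 in CIE 7d mice (median 5.01) and from 5.22 to 5.83 in Ctrl 7d mice (median 5.64), whereas the brighter differed by 0.22 ± 0.11 (adjusted p = 0.316). Clec2i and Tomm20l (0.57) rose on the brightest probeset, also dim. For Tmsb10 (0.82), Wdr37 (0.56), Bin1 (0.57), Rps18 (-0.61) and Zfand3 (-0.53) the call came from a dim probeset. The brightest probeset of each not marked as matching several transcripts differed by -0.28 for Tmsb10 (adjusted p = 0.101), -0.10 for Wdr37, 0.01 for Bin1, 0.0011 for Rps18 and 0.11 for Zfand3, and none of these was called.

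The probesets called at 7d were then read at the other times, each with other CIE and other Ctrl mice. They leaned the same way at 0h and at 72h but not at 8h. At 72h 413 of the 427 differed in the direction of 7d (96.7%) and at 0h 378 (88.5%), while at 8h 214 did (50.1%). Over all probesets between 48.4% and 51.6% differ in a given direction at these times. The 217 that rose at 7d (median 0.46) had a median of 0.21 at 0h, 0.02 at 8h and 0.26 at 72h, and the 210 that fell (median -0.43) had -0.21 at 0h, 0.01 at 8h and -0.24 at 72h. In the 3 CIE and 3 Ctrl mice of 8h that belonged to repeat group 1, as all 7d mice did, the share was 53.9% for rises and 51% for falls. The 7d values were selected by size and the values at other times were not, so the order of the medians over time is not a comparison of sizes.

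**Figure D5:**
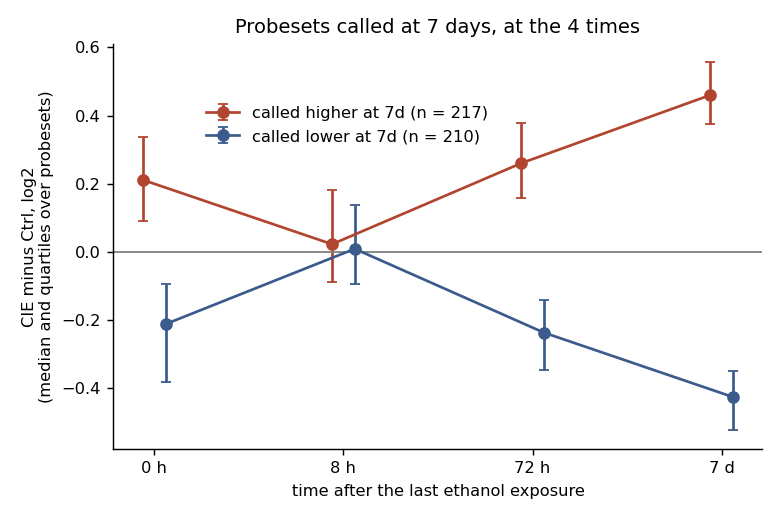
CIE minus Ctrl on the log2 scale (y axis; points are medians, bars run from the lower to the upper quartile over probesets) at 0h, 8h, 72h and 7d (x axis, not to scale) for the 217 probesets called higher (red) and the 210 called lower (blue) at 7d. Both sets lie on their own side of 0 at 0h and 72h and near 0 at 8h.

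At 72h 238 probesets were called (0.528%), of which 71 were also called at 7d in the same direction, which is 16.6% of the 7d calls and 29.8% of those at 72h, and 0 in the opposite one. At 0h 3277 were called (7.28%) and 131 shared, all in the same direction (30.7% of the 7d calls and 4% of those at 0h). At 8h 1527 were called (3.39%), with 11 shared in the same direction and 5 in the opposite. Clint1 and Aftph were the bright named genes called at 0h, 72h and 7d alike, Clint1 with 0.32 at 0h and 0.35 at 72h and Aftph with -0.33 and -0.48. In all, 20 probesets were called at these 3 times in 1 direction and 3 at all 4 times, and 40 were called at 7d with an unadjusted p above 0.05 at each other time. All times were tested with the same estimate of spread per probeset, so calls at several times are not independent.

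Between 7d and 72h limma found 0 probesets (0%; 2529 at an unadjusted p ≤ 0.05, 0 with the trend and robust variance prior and 1 with array weights). Between 7d and 0h 123 differed (0.273%), of which 104 were called at 0h and 10 at 7d, and 109 had effects of opposite sign. A call on the difference between effects favors opposite signs, and in 105 of the 123 the effect was larger at 0h. The count of opposite signs therefore does not show that effects reversed by 7d. Between 7d and 8h 810 differed (1.8%), among them 60 of the 217 rises and 69 of the 210 falls of 7d. Those rises and falls were selected on the 7d effect, which is part of this test and favors such differences. The 8h arrays include mice of repeat group 2, for which the authors had adjusted the values.

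The 6 Ctrl 7d mice were also set beside the 12 Ctrl mice of 0h and 72h, which breathed air alike. Limma called 0 probesets between them (0%, smallest adjusted p = 0.0646; 2529 at an unadjusted p ≤ 0.05, 0 with the trend and robust prior and 0 with array weights). CIE 7d mice set against those 12 Ctrl mice gave 1076 calls (2.39%), 498 higher and 578 lower. This comparison shares the CIE mice with the main one and has more Ctrl mice. The probesets below were selected on those same CIE mice, so their agreement here is not independent evidence. All 34 named probesets differed in the same direction in it, and the call was met by 10 of the 12 bright rises, 9 of the 12 bright falls, 5 of the 5 dim rises and 3 of the 5 dim falls. Differences were 0.38 against the other Ctrl mice and 0.41 against Ctrl 7d for Clint1, -0.54 and -0.50 for G0s2, -0.52 and -0.44 for Pnpla3, and 0.39 and 0.58 for Yod1. Tanc2 (0.41, adjusted p = 0.0626), Vangl1 (0.30, adjusted p = 0.0540) and 9630013A20Rik (-0.27, adjusted p = 0.354) were among those not called, against 0.75, 0.51 and -1.04 with Ctrl 7d. Of the 427 probesets 307 were called against the other Ctrl mice too, and 44 of the 57 bright ones. At the 427, Ctrl 7d minus the other Ctrl mice had a median of -0.08 for rises and 0.08 for falls. Limma gave 80 of the 427 an unadjusted p ≤ 0.05 there, beside 2529 of all 45037. The 427 were selected on the Ctrl 7d values too.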

How the data were processed

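RNA from the medial PFC of single mice was hybridised to Affymetrix mouse genome arrays, with each time point holding its own CIE and Ctrl mice. The deposited values are log2 signals that the authors made by RMA (named in the submitters' processing notes), background-corrected and quantile-normalised within hybridisation batch and then across arrays, with ComBat for the repeat group. The sources used here give neither software versions nor the hybridisation batch of each array, so a batch term could not be fitted. All 7d mice belonged to repeat group 1. The methods describe samples as randomised over groups and times.

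All 8 groups of the 47 arrays entered 1 limma model (limma 3.58.1, R 4.3.3) over 45037 probesets with no filter, and p-values were adjusted by Benjamini-Hochberg over all of them, with a call at FDR ≤ 0.01. The 8 groups thus share 1 estimate of spread per probeset. Of the probesets 34945 had 1 gene symbol, 932 several and 9160 none listed, and 34741 symbols were updated through Entrez with RefSeq (GRCm38.p6), giving 18194 genes. Promoters are the 250 bases before the start in the same RefSeq table, and shown stretches stop where the annotated gene begins. Named genes were the called probesets with 1 symbol and no mark of matching several transcripts that had the largest differences, 12 bright and 5 dim in each direction, with the called or lowest-p members of each list described, and Bdnf, Myoz1 and Sgsh from the study. The members and the 42 gene lists (29 of pathways, 12 of markers, 1 of genes the study chose on these mice) were chosen with earlier results of these data known. The model was tested on simulated data. No value column was left out. The number of arrays limits the precision, and no source used here says whether mice came from separate litters or cages.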

Additional observations from a re-analysis of the deposited data

Results flagged for a closer look

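Among 160 group values, those of the named probesets and of the lists in each group of 6 mice, 19 had 1 mouse farther from the rest than Dixon's 95% critical ratio for 6 values allows, and chance flags about 1 in 20 groups. CIE mouse 27 was highest for the list means of meninges and fibroblasts (8.82, next 6.58), MHC genes (7.67, next 7.10), interferon response (6.91, next 6.59), NF-kB and cytokines (6.11, next 5.99) and blood (5.09, next 4.78). CIE mouse 7 was highest for striatum (9.45, next 8.16), RNA splicing (11.00, next 10.97) and Cdk12 (7.28, next 7.08), and lowest for chaperones (10.11, next 10.21). CIE mouse 13 was highest for immediate early genes (9.45, next 8.64). CIE mouse 37 was highest for postsynaptic scaffold genes (10.33, next 10.22) and excitatory neurons (10.82, next 10.58), and CIE mouse 45 was lowest for Puf60 (6.98, next 7.19). Ctrl mouse 46 was highest for excitatory neurons (10.82, next 10.58), neurodevelopment (8.62, next 8.53), Slu7 (10.06, next 9.88) and Smyd5 (7.15, next 5.99), and lowest for microtubule genes (11.49, next 11.56). Ctrl mouse 28 was highest for meninges and fibroblasts (7.04, next 6.57). The part of these mice in the calls is given by the counts without each of them.

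The ethanol effects at 7d and 8h differed in the limma interaction test for 19 of the 37 named probesets, and for 1.8% of all probesets. Most named probesets were selected for a large difference at 7d. That difference is part of each interaction, so the selection favors such results and the count is not independent evidence. For rises at 7d the difference between the effects was 0.88 for Gng2, 0.82 for Stag2, 0.81 for Abca1, 0.77 for Wdr48, 0.75 for Defb2, 0.66 for Usp24, 0.62 for Ndufb2 and 0.59 for Klrg2. For falls it was -1.66 for Smyd5, -1.55 for Atp5a1, -1.35 for 9630013A20Rik, -1.02 for Gm15663, -0.83 for Prkar2a, -0.58 for both Spred1 and Mettl1, -0.55 for Mospd3, -0.54 for G0s2, -0.51 for Acox3 and -0.50 for Zfp148. Between 7d and 0h only Defb2 among the named probesets differed, by 0.69 (adjusted p = 0.00771).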

How the results depend on the processing

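Counts of calls depended on the model. Between CIE 7d and Ctrl 7d the 427 calls (57 bright, 370 dim) were 761 (149 and 612) with the arrays of repeat group 1 alone, 2579 (539 and 2040) with array weights, 1635 (307 and 1328) at FDR ≤ 0.05, and 247 (59 and 188) on the 12 arrays of 7d alone, where 23 of the 57 bright calls were shared and 74.6% of bright calls were higher, against 47.4% in the model of all arrays. Adjusting over bright probesets alone left 26 of the 57. The named bright genes that lost their call in this setting were Tanc2, Vangl1, Klrg2, Armc8, Spred1, Sdccag8, Mettl1, Slu7, Acox3, Mospd3 and Cdk12. With striatal and meningeal marker means as terms, chosen after seeing the data, the count was 434. The difference between the effects at 7d and 0h (123 calls) gave 227 in repeat group 1, 1679 with array weights, 906 at FDR ≤ 0.05 and 38 with the marker terms, and 30 over bright probesets alone, where the model of all probesets called 42. Between 7d and 8h (810 calls) the counts were 1477 with repeat group as a term, 4933 with array weights, 3390 at FDR ≤ 0.05 and 234 over bright probesets alone, against 291. Between 7d and 72h 1 probeset was called with array weights and 1 at FDR ≤ 0.05. CIE 7d against the Ctrl mice of 0h and 72h (1076 calls) gave 1619 in repeat group 1, 4454 with array weights, 3330 at FDR ≤ 0.05 and 138 over bright probesets alone, against 273. The cause of these shifts was not tested.

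Leaving out each 7d mouse gave 200 to 539 calls in all, 27 to 58 bright and 169 to 481 dim. The total moved by over 1.5 times without CIE mice 27 (221), 37 (200) or 45 (240) and without Ctrl mice 46 (233), 70 (242) or 80 (284), and the bright count also without CIE mouse 65 (36). The range was 29 to 304 for 7d against 0h, 458 to 777 for 7d against 8h, 0 throughout for 7d against 72h, and 492 to 1254 for CIE 7d against the Ctrl mice of 0h and 72h. Over the named probesets, 669 values kept their direction and side of the threshold, 132 kept the direction without a call, and 1 turned, that of Bdnf, which ranged from -0.18 without CIE mouse 13 to 0.036 without Ctrl mouse 18, against -0.08 with all mice. Most named probesets were selected for large differences, and some alternatives leave the group means unchanged, so the kept directions are not independent evidence. Of the list medians 951 moved by less than the spread between mice and 15 by more. No paired analysis was possible because the mouse numbers in the titles are not shared between CIE and Ctrl. Dim signals near background limit what their calls can show.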
